A study of Mus musculus with 22 samples.

Results

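The HOX genes encode homeodomain transcription factors that lie side by side in 4 clusters, named Hoxa to Hoxd. The 36 genes described here are 10 of Hoxa (Hoxa2 to Hoxa13), 10 of Hoxb (Hoxb1 to Hoxb13), 7 of Hoxc (Hoxc4 to Hoxc13) and 9 of Hoxd (Hoxd1 to Hoxd13), chosen by symbol, and the series measures 18193 genes in all. The RefSeq gene table lists 39 HOX genes in all. Of the 36 members, 33 had a probe set listed for that gene alone, and Hoxa6, Hoxb8 and Hoxd4 had none and were not given a value. The choice of genes used symbols and cluster membership, not measured levels, though earlier results of these data were known. The probe set of each gene was chosen by level, as the one with the highest mean over all arrays. Lung gave 16 of the 22 arrays, so this rule favours probe sets that read high in lung.

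In the embryo, HOX genes are switched on in the order in which they stand along the cluster, and the combination present in a cell records its position along the body axis. HOX proteins bind DNA together with TALE partners of the PBX and MEIS families, and retinoic acid and the trithorax methyltransferase encoded by Kmt2a are classical activators of the clusters. In lung, Hoxa5 and Hoxb5 act in the mesenchyme around branching airways, and adult lung keeps part of the anterior and middle Hoxa and Hoxb genes active.

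Levels came from 22 mouse arrays. A2C12 is a single tumour cell line from the lung of a double transgenic mouse (c-myc and c-raf, strain background C57BL/6), and the cells studied were its side population (SP), the fraction that exports the DNA dye Hoechst and was collected by flow sorting. The groups were 3 arrays of untreated SP cells, 3 arrays of SP cells exposed for 48 h, ahead of sorting, to 100 µg/ml of a monoclonal anti-EpCAM antibody, and 16 arrays of whole C57BL/6 lung without transgenes. The lung arrays carry the labels male (8 arrays) and female (8 arrays). Both cell groups carry the transgenes and lung carries neither. The promoter that drives each transgene and the ages of the mice are not given in the sources used here. The labels call the arrays biological replicates without saying which cultures gave the cell arrays, so p-values measure the spread between these arrays.

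The order of the genes within a cluster and the DNA in front of them are shown for the 5 Hoxa genes called between untreated SP cells and lung, 3 higher in the cells (Hoxa2, Hoxa10, Hoxa11) and 2 lower (Hoxa5, Hoxa7), by the test described further on, which called 41.6% of all genes tested. In antibody-treated cells Hoxa11 was not called. These 5 lie on the minus strand of chromosome 6 within a short stretch. In order of position in untreated cells, Hoxa2 was higher, Hoxa5 and Hoxa7 were lower, and Hoxa10 and Hoxa11 were higher. Each sequence is the 250 bases before the RefSeq start site (GRCm38.p6), read 5′ to 3′ on the minus strand. Positions are chr6:52164832-52165081 for Hoxa2, chr6:52204588-52204837 for Hoxa5, chr6:52218574-52218823 for Hoxa7, chr6:52240855-52241104 for Hoxa10, for which the outer of its listed starts was taken, and chr6:52245811-52246060 for Hoxa11. Capitals mark matches, on either strand, to 4 motifs: TATAAA, the core promoter box, CCAAT, the box bound by NF-Y, TGATNNAT, a site for HOX and PBX bound together, and AGGTCA, the element of retinoic acid receptors. None of the motifs contains another.
Hoxa2: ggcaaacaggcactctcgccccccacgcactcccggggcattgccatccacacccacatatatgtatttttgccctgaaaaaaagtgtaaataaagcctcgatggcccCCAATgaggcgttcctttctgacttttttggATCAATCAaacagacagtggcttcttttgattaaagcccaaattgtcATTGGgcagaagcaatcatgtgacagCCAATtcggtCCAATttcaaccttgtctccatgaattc
Hoxa5: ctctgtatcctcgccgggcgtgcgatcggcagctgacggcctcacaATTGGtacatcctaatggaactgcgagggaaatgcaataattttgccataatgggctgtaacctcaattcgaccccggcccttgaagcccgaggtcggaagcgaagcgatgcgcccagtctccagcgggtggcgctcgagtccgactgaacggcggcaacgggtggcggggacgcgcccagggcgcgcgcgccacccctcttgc
Hoxa7: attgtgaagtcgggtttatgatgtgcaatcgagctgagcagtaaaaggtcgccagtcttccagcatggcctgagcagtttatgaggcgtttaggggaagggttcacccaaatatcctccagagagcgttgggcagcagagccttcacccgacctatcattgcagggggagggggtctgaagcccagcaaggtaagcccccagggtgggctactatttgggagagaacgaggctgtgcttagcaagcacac
Hoxa10: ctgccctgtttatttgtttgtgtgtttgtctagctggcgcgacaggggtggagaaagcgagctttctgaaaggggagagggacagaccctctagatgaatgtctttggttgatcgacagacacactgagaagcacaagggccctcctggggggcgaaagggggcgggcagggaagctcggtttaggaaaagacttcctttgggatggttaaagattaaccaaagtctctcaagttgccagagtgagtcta
Hoxa11: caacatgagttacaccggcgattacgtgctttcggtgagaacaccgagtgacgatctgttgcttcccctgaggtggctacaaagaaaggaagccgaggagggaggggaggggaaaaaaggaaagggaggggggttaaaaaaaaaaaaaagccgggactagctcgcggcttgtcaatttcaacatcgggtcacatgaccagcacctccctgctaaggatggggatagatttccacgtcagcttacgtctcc

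Of these 5 sequences, Hoxa2 held 4 CCAAT boxes and 1 HOX-PBX site, the latter beginning 111 bases before the start. The Hoxa5 sequence held 1 CCAAT box, beginning 204 bases before the start, and the other three held no match to any of the motifs. The Hoxa5 sequence had 28 CpG dinucleotides, against 6 for Hoxa2, 7 for Hoxa7, 7 for Hoxa10 and 13 for Hoxa11. Neither the higher nor the lower genes therefore shared a motif in this window, and a match or its lack is a description of the letters only. The table held promoters for 22 of the 36 members, 24 sequences in all. CCAAT stood in 58.3% of the 24 and in 33.8% of all 32851 promoters of the same length, TATAAA in 16.7% against 12.4%, TGATNNAT in 16.7% against 7.68%, and AGGTCA in 6 of the 24 against 4607 of the 32851. The median HOX sequence had 12.5 CpG dinucleotides and 58.6% GC, against 6 and 52.4% over all promoters.

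Arrays of lung did not all behave alike. The lung arrays labelled male 3 and male 4 had Xist, the female-specific transcript of the X chromosome, at 1512 to 1583 and Uty, on the Y chromosome, at 8.27 to 9.46, against Xist of 12.7 to 24.0 and Uty of 722 to 1253 on the other male-labelled arrays. They also stood apart on the first principal component of lung, which held 31.6% of the variance, at 37.5 and 48.1. The same component split the other lung arrays by replicate number. Replicates 5 to 8 of both labelled sexes lay from -14.2 to -9.92, and replicates 1 to 4 at -4.81 or above. What the replicate numbers stand for is not given in the labels. On the second component, with 16.2% of the variance, male 2 was highest at 40.9, and the next array was at 11.2. Male 4 was the lowest lung array for 9 of 33 HOX members, 27.3%, against 13.8% of all genes. All 11 HOX calls made against lung in each cell group were also made without male 3 and male 4. Cells and lung differed in the added control transcript dap, at 222 to 419 on cell arrays, against at most 6.32 in lung, so anything in sample handling that goes with dap cannot be told apart from the cells themselves. The log2 ratio of 3′ to 5′ signal of Gapdh, a sign of RNA quality, was -0.13 to 0.07 (untreated), -0.12 to 0.40 (antibody-treated) and 0.22 to 1.02 (lung), so that untreated cells and lung did not overlap. The same ratio of beta-actin overlapped, at 0.25 to 0.86, 0.22 to 1.21 and 0.28 to 0.90. Their part in the HOX differences was not tested.

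Markers of the cell types of a lung differed in how far they were below lung in the cells. The summed intensity of 6 lung epithelium markers was 175 to 274 on cell arrays against 32268 to 38495 in lung. The lung lineage factor Nkx2-1 was under the 40th percentile of its array, called the filter level from here on, on each of the 6 cell arrays. All 6 endothelium markers and all 7 measured leukocyte markers were lower in untreated cells, with sums of 60.7 to 82.6 against 8471 to 15951 and of 496 to 747 against 12870 to 17177. For mesenchyme, where Hoxa5 and Hoxb5 are known to act, 5 of 8 fibroblast markers were lower 1, Col1a1, was higher, and Col1a2 and Col3a1 were not called (-0.05 and -0.52 in untreated cells), with sums of 7674 to 11546 (untreated), 6626 to 11358 (antibody-treated) and 14268 to 20884 (lung). Lum and Tcf21 were under the filter level on all cell arrays. Of 5 smooth muscle markers 4 were lower and Acta2, at 3790 ± 988 in untreated cells and 5433 ± 791 in lung, was not called, with sums of 3021 to 4920 in untreated cells and 6112 to 13085 in lung. In untreated cells 2 of 3 mesothelium markers were lower, with sums of 88.8 to 167 against 318 to 1150. In antibody-treated cells 1 of 3 was lower, and Msln, at -0.97, fell short of 2-fold. The part of these cell types in the HOX differences was not tested. In bulk tissue, fewer cells of a type and less RNA per cell cannot be told apart.

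**Figure D1:**
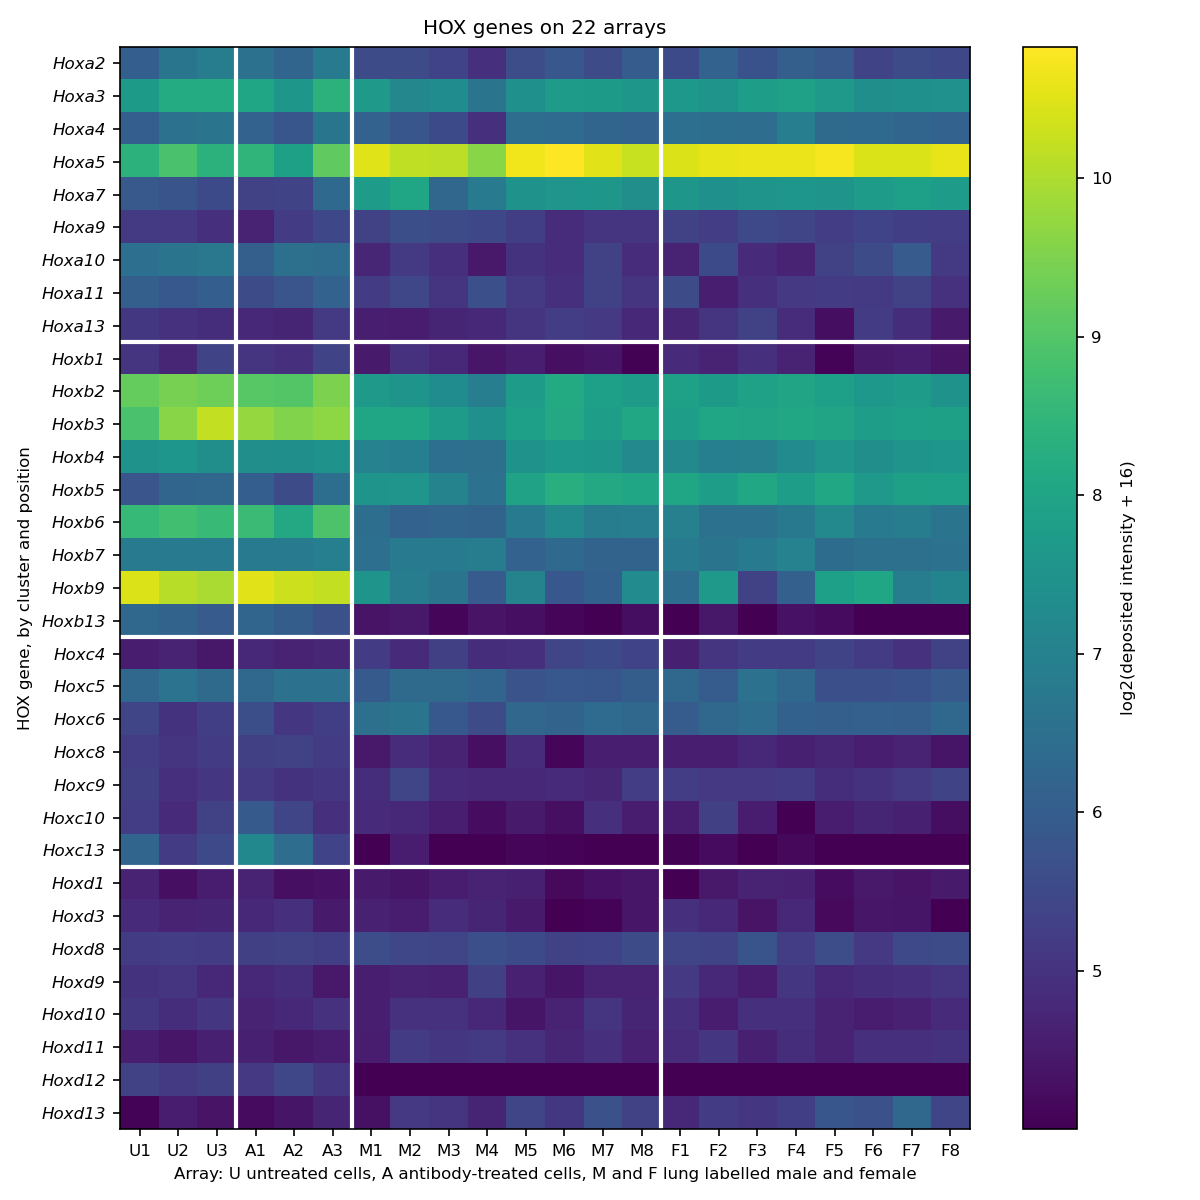
Level of 33 HOX genes (rows, by cluster and position) on 22 arrays (columns: U untreated SP cells, A antibody-treated SP cells, M and F lung labelled male and female) as log2 of deposited intensity plus 16. Hoxa5 is bright on lung arrays, Hoxb2, Hoxb3, Hoxb6 and Hoxb9 are brighter on cell arrays, and most Hoxc and Hoxd rows are dark throughout. Colours of different rows come from different probes and give no order between genes.

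The first comparison, which the design text names, set untreated SP cells against lung. HOX genes moved in both directions: 8 members were higher in the cells, 5 of them in the Hoxb cluster, and 3 were lower, among them the mesenchymal lung regulators Hoxa5 and Hoxb5. On the offset scale used here Hoxb9 had the largest difference, reading 1159 ± 219 in the cells (SD, n = 3) and 111 ± 66.2 in lung (SD, n = 16). Hoxa5 was at 365 ± 78.1 against 1409 ± 255. Differences are on the scale of log2(intensity + 16) after quantile normalization, and a gene was called at an adjusted p (limma, Benjamini-Hochberg over all genes tested) under 0.05 with at least a 2-fold difference. The offset of 16 understates folds of dim genes, and the order of sizes turns with it: with an offset of 1, Hoxb13, which read 55.1 ± 8.02 against 2.29 ± 2.24, differed by 4.83 and Hoxb9 by 3.69.

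Of 33 members, 19 passed the intensity filter, that is, exceeded the filter level on 3 or more of the compared arrays. The 8 higher and 3 lower members stand against a background in which 41.6% of the 15197 genes tested were called, 17.8% higher and 23.8% lower. Without the filter 10 of 33 members were higher, against 15.3% of 18193 genes, and 3 were lower, against 3634 of the 18193. Among the 8 higher members, Hoxa10, Hoxa11 and Hoxb13 exceeded the filter level on fewer than 3 lung arrays and so passed through the cell arrays. All 3 were also called without the filter. The median difference over the 33 was 0.52 (log2), against 0.07 over all genes. In these terms SP cells and lung differ in a large share of all genes, and HOX genes are among them in both directions. On the normalized scale 15 members lay above and 3 below every lung array, against 30.2% and 29.3% of all genes. Of those above, Hoxa2, Hoxa3, Hoxb4, Hoxb7 and Hoxc5 overlapped lung in deposited intensity. Hoxc6 lay below lung in deposited intensity and overlapped it after normalization.

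The second comparison set antibody-treated SP cells against the same 16 lung arrays. It called 8 members higher and 3 lower, where 20 passed the filter (Hoxa10, Hoxa11, Hoxb13 and Hoxc13 through the cell arrays). Of 15138 genes tested 41.1% were called, 17.2% higher and 23.9% lower. On the normalized scale 13 members lay above and 1 below every lung array, against 28.2% and 28.7% of all genes. Of those above, Hoxa11, Hoxb1 and Hoxb7 overlapped lung in deposited intensity. Hoxb5 lay below lung in deposited intensity and overlapped it after normalization. The median difference over the 33 was 0.46, against 0.05 over all genes. Since both comparisons use the same lung arrays, they are not independent of each other, and the values of both cell groups are given side by side.

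**Figure D2:**
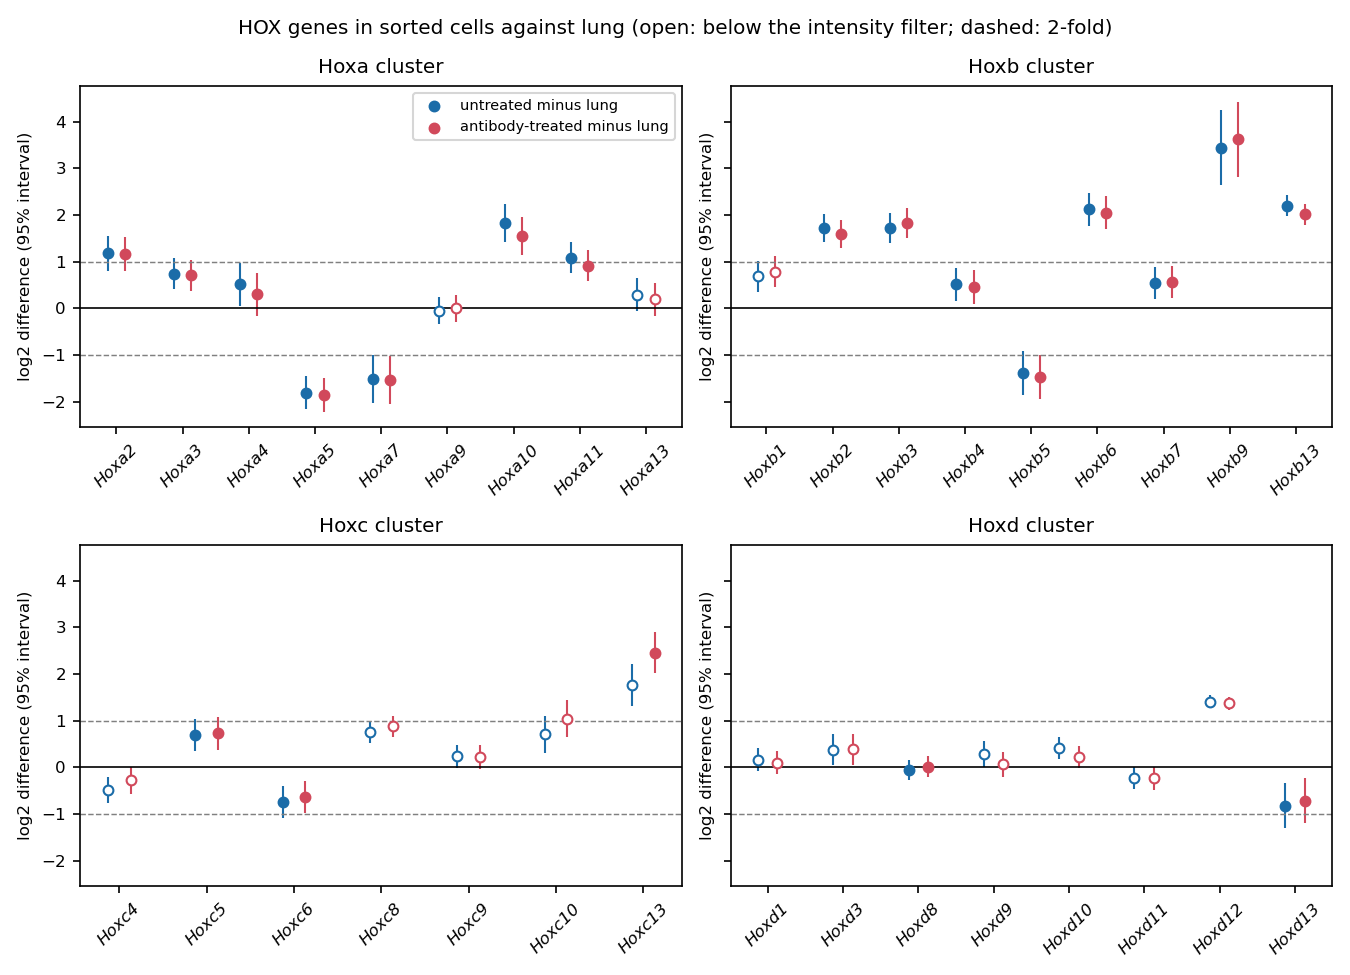
Difference from lung (vertical axis, log2, normalized scale) of each HOX gene in order of position along its cluster, for untreated (blue) and antibody-treated (red) SP cells, with 95% intervals from the fit without the intensity filter. Open points are below the filter and dashed lines mark 2-fold. In the Hoxb panel Hoxb5 is the 1 gene below the lower line between neighbours above 0, and in the Hoxa panel Hoxa5 and Hoxa7 lie below it while Hoxa10 and Hoxa11 lie near or above the upper line.

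At the anterior end of Hoxa, Hoxa2, which patterns the hindbrain and the second pharyngeal arch, read 50.0, 85.0 and 101 on the untreated arrays and 77.9, 59.3 and 94.7 on the antibody-treated arrays. Lung ran from 14.6 to 54.3 with a median of 31.7. Untreated array 1 fell within the lung range and the other 5 cell arrays were above it. Hoxa2 was 2.26-fold higher in untreated cells (log2 difference 1.18 ± 0.18 SE, adjusted p = 1.9e-06) and 2.24-fold higher in antibody-treated cells (1.16 ± 0.18, adjusted p = 2.3e-06). The call was lost without normalization, where the difference was 0.88 in both comparisons, and in untreated cells without untreated array 3, where it was 0.99.

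Hoxa3 and Hoxa4, the next genes along the cluster, act in the pharyngeal region and did not reach 2-fold. Their differences were 0.74 and 0.52 in untreated cells and 0.71 and 0.30 in antibody-treated cells. Hoxa3 ran from 181 to 317 on cell arrays and from 83.2 to 222 on lung arrays, so the deposited ranges overlapped. Hoxa4 ran from 40.5 to 83.8 on cell arrays and from 14.1 to 105 on lung arrays.

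Hoxa5, needed in the mesenchyme for airway and alveolar development, read 321, 455 and 318 on untreated arrays and 336, 221 and 558 on antibody-treated arrays. Lung ran from 771 to 1803 with a median of 1432. All 6 cell arrays were below every lung array, the lowest of which was male 4. Without male 3 and male 4 lung began at 1139. Hoxa5 was 3.50-fold lower in untreated cells (-1.81 ± 0.18 SE, adjusted p = 1.3e-09) and 3.62-fold lower in antibody-treated cells (-1.86 ± 0.18, adjusted p = 8.4e-10). A second Hoxa5 probe set, marked by its suffix as able to bind other transcripts, differed by -0.15 and -0.06 and was not called. With the mean of both probe sets Hoxa5 differed by -0.98 and -0.96, under the 2-fold limit.

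Hoxa7, a gene of the trunk region, read 43.5, 38.4 and 30.1 on untreated arrays and 25.0, 26.1 and 64.4 on antibody-treated arrays. Lung ran from 60.8 to 243 with a median of 174. Untreated cells lay below all lung arrays, and antibody-treated array 3 was just above the lowest one, male 3. Without male 3 and male 4 lung began at 149 and no cell array reached it. The level was 2.84-fold lower in untreated cells (-1.51 ± 0.25 SE, adjusted p = 7.1e-06) and 2.92-fold lower in antibody-treated cells (-1.54 ± 0.25, adjusted p = 5.2e-06).

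Hoxa10 and Hoxa11 are posterior genes that pattern the reproductive tract and the limb. Hoxa10 read 74.4, 82.2 and 91.3 on untreated arrays and 51.6, 75.2 and 71.1 on antibody-treated arrays, with lung from 6.24 to 46.2 and a median of 15.1. Every cell array was above every lung array, and lung exceeded the filter level on 2 of 16 arrays. Hoxa10 thus passed the filter through the cell arrays. In the fit without the filter Hoxa10 was 3.55-fold higher in untreated cells (1.83 ± 0.20 SE, limma adjusted p = 1.1e-08). In antibody-treated cells it was 2.92-fold higher (1.55 ± 0.20, limma adjusted p = 1.9e-07). Its second probe set gave 2.61 and 2.57.

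Hoxa11 read 51.2, 43.4 and 49.6 on untreated arrays and 30.8, 40.1 and 54.8 on antibody-treated arrays, with lung from 7.74 to 34.9 and a median of 19.95. The untreated arrays were above all lung arrays, and antibody-treated array 1 fell within the lung range. Lung exceeded the filter level on 1 of 16 arrays, so Hoxa11 passed the filter through the cell arrays. In the fit without the filter the difference was 1.08 ± 0.16 in untreated cells (2.12-fold, limma adjusted p = 1.3e-06). It was 0.83 without normalization, under the 2-fold limit. In antibody-treated cells the fit without the filter gave 0.91 ± 0.16 (limma adjusted p = 1.6e-05), below 2-fold. The difference there was 1.06 without antibody-treated array 1.

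Hoxa9 and Hoxa13, the remaining Hoxa members, were below the filter with their chosen probe sets. Hoxa9, known for its part in leukaemia, read 9.81 to 28.7 on cell arrays, against 12.9 to 33.98 in lung. A second Hoxa9 probe set read 19.9 to 38.7 on cell arrays, against at most 8.02 in lung. In antibody-treated cells it passed the filter through the cell arrays alone, so passing it already required a difference. In the fit of all probe sets without the filter it differed there by 1.39 ± 0.13 (limma adjusted p = 4.3e-10). In untreated cells it was below the filter, with 1.34 ± 0.13. Hoxa13, the most posterior gene, was never above the filter level.

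**Figure D3:**
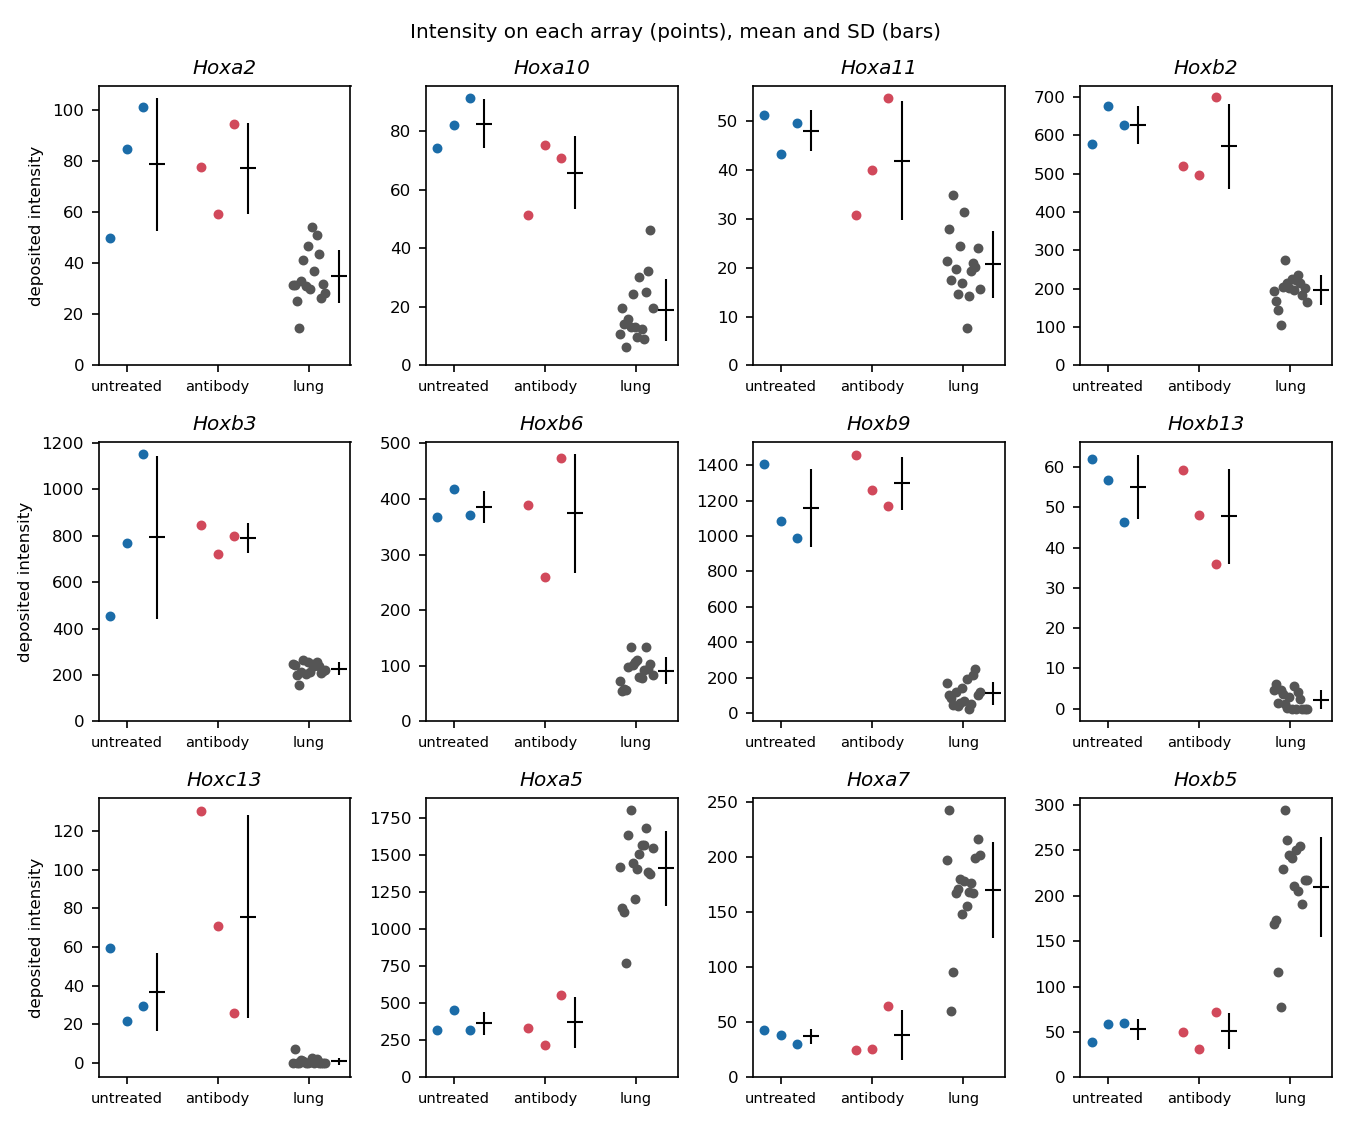
Deposited intensity (vertical axis, linear from 0, a scale of its own in each panel) of the 12 HOX genes called in either comparison with lung, on untreated (blue) and antibody-treated (red) SP cell arrays and on 16 lung arrays (grey), with mean and SD as bars. Hoxb9 reads 986 to 1459 on cell arrays, against at most 247 in lung, and Hoxa5 reads at most 558 on cell arrays and at least 771 on lung arrays.

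The Hoxb cluster held most of the higher members. Hoxb2, which acts with Hoxa2 and Hoxb1 in the hindbrain, read 576, 676 and 626 on untreated arrays and 519, 496 and 698 on antibody-treated arrays. Lung ran from 105 to 274 with a median of 201, below all cell arrays. Hoxb2 was 3.28-fold higher in untreated cells (1.71 ± 0.14 SE, adjusted p = 1.1e-10) and 3.01-fold higher in antibody-treated cells (1.59 ± 0.14, adjusted p = 4.4e-10).

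Hoxb3 read 456, 769 and 1155 on untreated arrays and 849, 724 and 801 on antibody-treated arrays, with lung from 157 to 263 and a median of 229. No cell array reached down to lung, while the untreated arrays spread widely among themselves. The difference was 1.73 ± 0.16 (3.31-fold, adjusted p = 4.9e-10) and 1.83 ± 0.16 (3.55-fold, adjusted p = 1.8e-10). A second Hoxb3 probe set differed by 0.17 in both cell groups and was not called. With the mean of both probe sets the differences were 0.95 and 1.00, so that the call in untreated cells was lost.

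Hoxb4, a gene used to expand blood progenitors in culture, and Hoxb7 differed from lung by less than 2-fold. The differences were 0.51 and 0.54 in untreated cells and 0.46 and 0.57 in antibody-treated cells. Hoxb4 read 149 to 176 on cell arrays, against 73.9 to 182 in lung. Hoxb7 read 94.95 to 108 on cell arrays, against 54.7 to 114 in lung. A further probe set that matches both Hoxb7 and Hoxb8 read 184 to 224 on cell arrays, against at most 25.5 in lung. It was assigned to neither gene.

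Hoxb5, which with Hoxa5 shapes lung mesenchyme, stood against its neighbours. It read 39.4, 59.2 and 60.4 on untreated arrays and 49.6, 31.5 and 71.8 on antibody-treated arrays, with lung from 78.1 to 294.5 and a median of 218. All cell arrays were below every lung array in deposited intensity. After normalization antibody-treated array 3 passed the lowest lung array, male 4, and without male 3 and male 4 lung began at 169. Hoxb5 was 2.62-fold lower in untreated cells (-1.39 ± 0.23 SE, adjusted p = 5.3e-06) and 2.78-fold lower in antibody-treated cells (-1.47 ± 0.23, adjusted p = 2.3e-06).

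Hoxb6, the next gene, read 367, 418 and 371 on untreated arrays and 388, 260 and 473 on antibody-treated arrays. Lung ran from 54.5 to 134 with a median of 93.6, below all cell arrays. The difference was 2.12 ± 0.17 (4.36-fold, adjusted p = 6.2e-11) and 2.05 ± 0.17 (4.15-fold, adjusted p = 1.2e-10). Hoxb5 and Hoxb6 therefore differed from lung in opposite directions in both cell groups.

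Hoxb9, a gene of the thoracic region, read 1404, 1086 and 986 on untreated arrays and 1459, 1259 and 1171 on antibody-treated arrays. Lung ran from 23.7 to 247 with a median of 103. Every cell array was above every lung array. Hoxb9 was 10.9-fold higher in untreated cells (3.44 ± 0.39 SE, adjusted p = 2.3e-08) and 12.4-fold higher in antibody-treated cells (3.63 ± 0.39, adjusted p = 9.6e-09). Without male 3 and male 4 the differences were 3.39 and 3.57.

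Hoxb13, the most posterior Hoxb gene, is known as a marker of prostate and hindgut. It read 62.1, 56.8 and 46.3 on untreated arrays and 59.4, 48.0 and 35.8 on antibody-treated arrays, with lung at most 6.13 and a median of 1.89. All cell arrays and no lung array were above the filter level. Hoxb13 passed the filter through the cell arrays alone, so passing it already required a difference. In the fit without the filter the difference was 2.20 ± 0.11 SE (adjusted p = 5.3e-15) and 2.01 ± 0.11 (adjusted p = 3.2e-14) on the offset scale. Leaving out any 1 array of the compared cell group left fewer than 3 arrays above the filter level, so that Hoxb13 was then below the filter and had no call. Hoxb1 read 10.7 to 26.1 on cell arrays, against 0.556 to 15.4 in lung, and was below the filter.

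In the Hoxc cluster, 1 member was called, and in 1 cell group. Hoxc13, known for its part in hair and nail, read 59.5, 21.4 and 29.2 on untreated arrays and 131, 70.8 and 25.7 on antibody-treated arrays, with lung at most 7.24. Every cell array was above every lung array, and the cell arrays of each group spread widely. Hoxc13 passed the filter in antibody-treated cells, through the cell arrays alone, and not in untreated cells. In the fit without the filter the difference was 2.46 ± 0.21 SE in antibody-treated cells (adjusted p = 1.7e-10) and 1.77 ± 0.21 in untreated cells (adjusted p = 5.9e-08). Leaving out any antibody-treated array placed Hoxc13 below the filter there too.

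Hoxc5 and Hoxc6, genes of the neck and chest region, were tested and not called, and their probe sets disagreed. The chosen Hoxc5 set differed by 0.70 in untreated cells, while the other sets differed by 1.12 and -1.06. The chosen Hoxc6 set differed by -0.74, and the others by 0.45 and 2.09. For Hoxc6 the third set read 47.2 to 89.1 on cell arrays, against at most 9.59 in lung, whereas the chosen one read 16.1 to 33.8 and 31.9 to 83.2. The direction of both genes thus depended on the probe set, and no direction is given for them.

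Hoxc4, Hoxc8 and Hoxc9 were never above the filter level, which was 24.6 to 25.8 on cell arrays, against 30.1 to 33.7 in lung. Hoxc8 read 16.3 to 24.3 on cell arrays, against 1.36 to 13.1 in lung, and these ranges did not overlap. Hoxc10 read at most 45.6 on cell arrays and at most 23.0 in lung, and was above the filter level on 2 antibody-treated arrays.

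The Hoxd cluster, which patterns the digits and the genitals in its posterior part, gave mostly low readings. None of its 8 measured members was above the filter level on all arrays of any group, whereas 7 of 9 Hoxa and 8 of 9 Hoxb members were so in untreated cells and 3 and 6 in lung. Hoxd1, Hoxd3, Hoxd9, Hoxd10 and Hoxd11 were never above it. With Hoxa13 and the Hoxc genes just named these make 9 members that reached at most 30.3 on any array. A probe set that matches both Hoxd3 and Hoxd4 read 31.8 to 33.2 on untreated arrays, above their filter level, 17.8 to 38.4 on antibody-treated arrays and 10.6 to 34.6 in lung, and was assigned to neither gene.

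Among the other Hoxd genes, Hoxd12 read 24.6, 19.5 and 23.5 on untreated arrays and 19.3, 28.1 and 17.5 on antibody-treated arrays, and was listed at or below 0.00694 on every lung array. It was below the filter, and without the filter it differed by 1.41 ± 0.07 SE (adjusted p = 3.2e-15) and 1.37 ± 0.07 (adjusted p = 5.4e-15) on the offset scale. Lung sat at the floor on every array, so the small SEs and p-values for Hoxd12 rest on floor readings there. Hoxd13 read 0.886 to 10.1 on cell arrays, against 3.72 to 63.5 in lung, where 4 of 16 arrays were above the filter level. It differed by -0.82 and -0.71, below 2-fold, and its second probe set by 0.12 in untreated cells. Hoxd8 read 20.5 to 23.9 on cell arrays, against 19.4 to 39.0 in lung, with differences of -0.06 and 0.02.

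**Figure D4:**
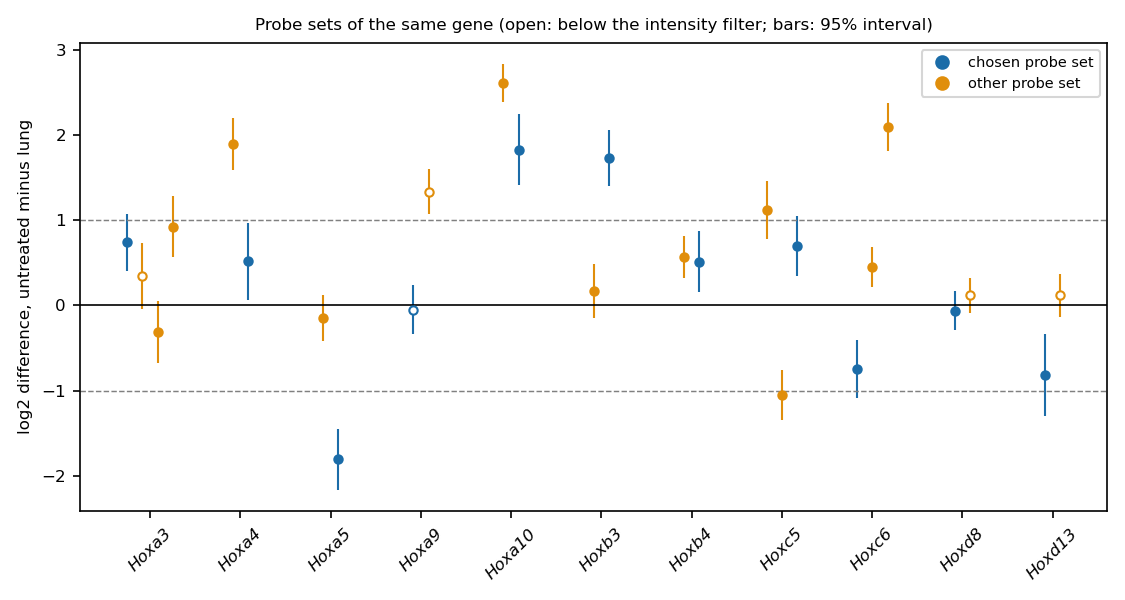
Difference between untreated SP cells and lung (vertical axis, log2, with 95% intervals) for every probe set of the 11 HOX genes that have several, with the chosen set in blue and the others in orange. Open points are below the intensity filter. The intervals of both Hoxa5 sets do not overlap, nor do those of Hoxa4 and Hoxb3, and the sets of Hoxb4 lie together at 0.51 and 0.57.

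Probe choice bore on the calls, since 11 members had several probe sets and 22 had 1. For Hoxa4 the chosen set differed by 0.52 in untreated cells and the second, marked as able to bind other transcripts, by 1.89. Hoxa3 had 4 sets, the chosen one marked as matching several transcripts, that differed by 0.74, 0.34, -0.31 and 0.92, and none was called. Of the 11 members called in untreated cells, Hoxa5, Hoxa10 and Hoxb3 had a second set, and it was called in the same direction for Hoxa10 alone.

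The third comparison, antibody-treated against untreated SP cells, tested whether antibody treatment moved HOX genes within the line. No member was called by limma, 0 of 17 that passed the filter. The background was also nearly empty, with 0.0236% of 12711 genes called (3 genes). At an unadjusted p under 0.05 the counts were 0 of the 17 members and 94 of the 12711 genes, and the smallest adjusted p among members was 0.999962.

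Differences between the cell groups ran from -0.28 for Hoxa10 to 0.69 for Hoxc13, with a median over 33 members of -0.01, as over all genes. For Hoxb9 the difference was 0.19 ± 0.15 SE (95% interval -0.16 to 0.53), for Hoxa5 -0.05 ± 0.27 (-0.67 to 0.57), for Hoxb5 -0.09 ± 0.25 (-0.66 to 0.49) and for Hoxa11 -0.17 ± 0.18 (-0.59 to 0.25). In the fit without the filter, which gives every member an interval, 32 of 33 intervals lay within a 2-fold difference either way on the offset scale. The exception was Hoxc13, at 0.69 (-0.40 to 1.79). Because of the offset, a doubling of a dim gene falls short of 2-fold on this scale. For the 16 members below the filter, the intervals therefore do not bound a 2-fold change in intensity. The same holds for dim members that passed it, such as Hoxa7. It read 37.3 ± 6.77 in untreated cells (SD, n = 3), with an interval of -0.71 to 0.64. Changes smaller than these intervals were not detectable with 3 arrays a group. On the normalized scale all antibody-treated arrays were above all untreated arrays for 2 members, Hoxc4 and Hoxd8, both below the filter, against 2.15% of all genes. They were below for 0 members, against 2.54%.

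**Figure D5:**
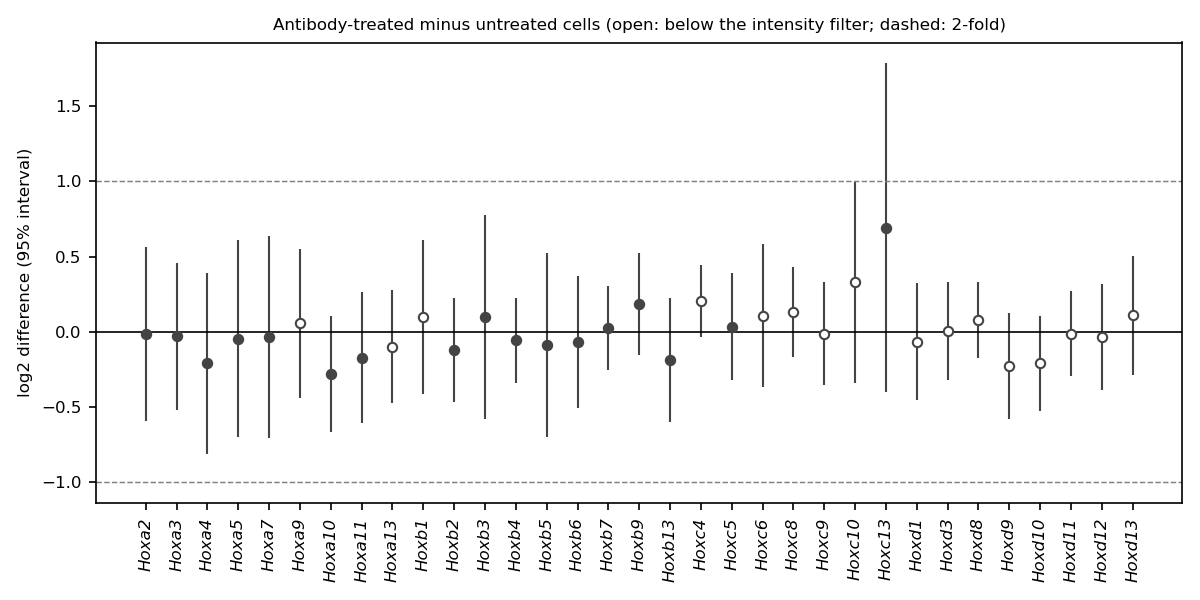
Difference between antibody-treated and untreated SP cells (vertical axis, log2, with 95% intervals from the fit without the intensity filter) for 33 HOX genes. Open points are below the filter and dashed lines mark 2-fold on the offset scale, which understates changes of dim genes. All intervals include 0, and that of Hoxc13 alone crosses a dashed line.

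HOX proteins work with TALE cofactors, of which 8 of 9 listed genes were measured. In untreated cells 4 were lower and 1 was higher, where 23.8% and 17.8% of all genes tested were. The lower ones were Meis1 (-1.72 ± 0.17), Pknox1 (-1.51 ± 0.16), Pknox2 (-1.40 ± 0.15) and Pbx3 (-1.30 ± 0.09). Meis1, which stabilizes HOX and PBX complexes, was at 109 ± 12.1 in untreated cells (SD, n = 3), 94.8 ± 5.16 in antibody-treated cells (SD, n = 3) and 487 ± 122 in lung (SD, n = 16). In antibody-treated cells 5 were lower and 1 higher, where 23.9% and 17.2% of all genes tested were. The median difference was -1.13 in untreated cells, against 0.07 over all genes.

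Among 12 genes of the trithorax side, which place or guard active chromatin marks on HOX clusters, 2 were lower and 1 was higher in each cell group. Of all genes tested, 23.8% were lower and 17.8% higher in untreated cells, and 23.9% and 17.2% in antibody-treated cells. Kmt2a, the methyltransferase that maintains HOX transcription, was lower (-1.63 ± 0.13 in untreated and -1.44 ± 0.13 in antibody-treated cells), as was the H3K27 demethylase gene Kdm6a (-2.14 ± 0.19 and -1.92 ± 0.19). Psip1, whose protein tethers the Kmt2a complex to chromatin, was higher (2.25 ± 0.11 and 2.21 ± 0.11).

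Of 18 retinoic acid pathway genes 16 were measured and 13 passed the filter. In untreated cells 2 were higher and 4 lower, where 17.8% and 23.8% of all genes tested were. In antibody-treated cells 2 were higher and 5 lower, where 17.2% and 23.9% of all genes tested were. Of the 3 retinaldehyde dehydrogenases, Aldh1a1 and Aldh1a2 were lower and Aldh1a3 was higher. Aldh1a1 was at 20.03 ± 14.7 in untreated cells and 7446 ± 939 in lung (-7.69 ± 0.20), and Aldh1a2 at 7.15 ± 6.01 and 404 ± 122 (-4.04 ± 0.24). Aldh1a3 was at 249 ± 139 and 12.4 ± 5.40 (3.30 ± 0.21). Dhrs3, which reduces retinaldehyde, was lower (-4.52 ± 0.09).

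Of 17 genes that flank the clusters 15 passed the filter. In untreated cells 3 were higher and 1 lower, where 41.6% of all genes tested were called. In antibody-treated cells 3 were higher and 2 lower, where 41.1% of all genes tested were called. Lnpk, beside Hoxd, was higher (2.18 ± 0.17), and Hnrnpa1, beside Hoxc, was higher (1.75 ± 0.11). Skap1, beside Hoxb, was lower (-1.73 ± 0.13). Of 8 listed RNAs from within the clusters 2 were measured. Hoxa11os, antisense to Hoxa11, was at 167 ± 17.5 in untreated cells, 172 ± 13.46 in antibody-treated cells and 34.8 ± 10.1 in lung, a difference of 2.11 ± 0.16 and 2.14 ± 0.16. Hoxb5os was at 38.3 ± 3.07, 35.9 ± 3.88 and 54.6 ± 14.2 and was not called (-0.08 ± 0.16 and -0.15 ± 0.16). Of 6 ParaHOX and CDX genes, Cdx2 alone was called, higher in untreated cells (1.11 ± 0.14), with 0.92 ± 0.14 in antibody-treated cells. No gene of these lists was called by limma between the cell groups, where 1 gene of the ParaHOX and CDX list had an unadjusted p under 0.05.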

How the data were processed

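RNA of 22 samples was measured on Affymetrix arrays of 45101 probe sets. The authors deposited 1 intensity per probe set on a linear scale, summarized with PLIER per the submitters' processing notes; its version and settings are not given in the sources used here. Probe sets were named through GEO's platform annotation: 34945 had 1 gene symbol, 932 several and 9160 were not listed. From the deposited intensities, log2(intensity + 16) was quantile normalized over 45037 probe sets (64 controls left out), and each gene kept the probe set with the highest mean over 22 arrays, avoiding those marked as cross-hybridizing. Normalization moved the median difference of all genes from lung from -0.07 to 0.07 in untreated and from -0.09 to 0.05 in antibody-treated cells. Genes above the 40th percentile on at least 3 compared arrays were tested with limma 3.58.1 (R 4.3.3, variance trend, two-sided). Comparisons with lung used a fit of 4 groups and the mean of male- and female-labelled lung; the cell groups were compared on 6 arrays. Replicate numbers did not pair the cell arrays (correlations of 0.07, -0.26 and 0.07). Code was tested on simulated data.

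HOX members and gene lists were chosen with earlier results of these data known. Values per array are given for members called in either comparison with lung or highest in a group, other members by range, and up to 4 genes of each list by largest change (cell type markers as examples). Other normalizations, offsets, filters, probe set rules and sample sets were tried. The number of arrays limits the precision.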

Additional observations from a re-analysis of the deposited data

Results flagged for a closer look

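Within lung, 20 tested HOX members were screened for arrays far from the rest of their labelled group, 40 groups of 8 in all, and chance marks about 1 group in 20. A gap to the nearest array of more than 0.526 of the range was found in 2 groups. Hoxa3 on male-labelled lung array 4 was the lowest of its group, at 6.68 on the normalized log2 scale against 7.27 on the next array, a gap of 0.636 of the range. Hoxc13 on male-labelled lung array 2 was the highest of its group, at 4.47 against 4.13, a gap of 0.721 of the range, where all lung arrays were under the 40th percentile of intensity.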

How the results depend on the processing

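In untreated cells against lung, counts of 8 higher and 3 lower HOX members became 5 higher with an offset of 64 and 5 higher with a filter at the 60th percentile, both without Hoxa2, Hoxa11 and Hoxb13. An offset of 1 gave 5 lower, adding Hoxc6 and Hoxd13, and without the 2-fold requirement there were 13 higher and 5 lower. In antibody-treated cells against lung, 8 higher and 3 lower became 5 higher with an offset of 64, 4 higher with the 60th percentile filter, which tests fewer genes, and 13 higher and 5 lower without the 2-fold requirement. The cause of the changes with the offset was not tested. Leaving out 1 cell array in turn gave 6 to 8 higher and 3 lower in each comparison with lung. Single lung arrays were not left out. Calls of all 11 members were kept with median centring, with lung as 1 group, and with lung replicates 1 to 4 or 5 to 8 alone, the latter 2 chosen after seeing the data. With lung replicates 5 to 8 alone, Hoxd13 was called in addition in both comparisons. The mean of probe sets added Hoxa4 in both comparisons. It lost Hoxa5 in both, and Hoxb3 in untreated cells. With the replicate number as a block, 0 members were higher and 0 lower between antibody-treated and untreated cells, as without it, and leaving out 1 array also gave 0. The filter limits what is said of 14 members in untreated cells, which lay too near the floor.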
